A study of Homo sapiens with 6 samples.

Results

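Of 39396 genes in the deposited table of read counts, 10 of the Notch pathway were followed: the receptors NOTCH1, NOTCH2 and NOTCH3, the ligands JAG1, JAG2, DLL1 and DLL3, and the target genes HES1, HEY1 and NRARP. They were chosen by name, and each of the 10 had a row and passed the filter on low counts. The libraries, 3 with the label olaparib and 3 with the label DMSO, come from bulk RNA sequencing. Both groups are given as wild-type RKO, an established line of colorectal cancer cells. Olaparib is an inhibitor of the PARP enzymes and DMSO is its solvent. The cells of both groups were plated the day before treatment, and neither dose nor duration is given in the sources used here.

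Notch is a receptor that is cut when it is bound by a ligand on a neighbouring cell. The freed intracellular part enters the nucleus and, with the DNA-binding protein RBPJ and a Mastermind coactivator, turns on targets, chiefly the HES and HEY repressors and NRARP, a feedback inhibitor. In the intestinal epithelium Notch activity keeps progenitors dividing and holds back the secretory lineages, through repression of ATOH1 by HES1.

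The 6 libraries held between 28715138 and 42423785 counts. Between groups 12927 of 17078 genes tested were called at an adjusted p of 0.05 (75.7%), 35.4% higher and 40.3% lower in olaparib, with a median absolute log2 fold change of 0.94. A call therefore says little by itself, and each count of Notch genes stands beside that share. Defining markers of the labelled cell type were present in part. Of 12 markers of colorectal epithelium, EPCAM, KRT8, KRT18 and MUC2 reached 1 CPM (counts scaled to library size) in all olaparib libraries, and KRT8, KRT18, CDX2 and LGR5 in all DMSO libraries. CDX2 and CEACAM5 had no count in olaparib, KRT19 none in DMSO and CDX1 none in either. The summed level of the 12 was 815 to 1093 CPM in olaparib and 243 to 312 CPM in DMSO. Of 7 genes typical of embryonic kidney cell lines, 6 reached 1 CPM in all DMSO libraries, whereas in olaparib PAX8 did and PAX2, SALL1, LIN28B and NEFL had no count. Their sum was 244 to 433 CPM in DMSO and 6.01 to 6.99 CPM in olaparib. Sums for 8 fibroblast markers were 103 to 136 CPM in olaparib and 94.0 to 102 in DMSO. For 5 endothelial markers they were 23.0 to 24.7 and 1.33 to 1.69, and for 5 blood markers 2.80 to 3.30 and 4.35 to 5.41, with CD3E and HBB at no count throughout. Cell source and treatment cannot be told apart here, so every direction below is between libraries as labelled. In bulk RNA, fewer cells of a type and less RNA per cell cannot be told apart either.

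The promoters of 2 targets that were lower in olaparib are shown because Notch turns on its targets through RBPJ, whose motif was searched for: the 250 bases before the RefSeq start (GRCh38.p14), 5′ to 3′ along the gene. HES1 lies on the plus strand at chr3:194135898-194136147 and NRARP on the minus strand at chr9:137302272-137302521. Capitals mark matches to TGGGAA, the core of the RBPJ motif, and the G before it where the match extends to GTGGGAA.
HES1: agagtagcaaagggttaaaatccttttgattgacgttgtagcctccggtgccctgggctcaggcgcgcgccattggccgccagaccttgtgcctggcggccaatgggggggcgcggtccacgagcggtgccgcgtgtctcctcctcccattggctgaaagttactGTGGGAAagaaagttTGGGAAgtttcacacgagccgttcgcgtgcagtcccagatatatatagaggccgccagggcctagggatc
NRARP: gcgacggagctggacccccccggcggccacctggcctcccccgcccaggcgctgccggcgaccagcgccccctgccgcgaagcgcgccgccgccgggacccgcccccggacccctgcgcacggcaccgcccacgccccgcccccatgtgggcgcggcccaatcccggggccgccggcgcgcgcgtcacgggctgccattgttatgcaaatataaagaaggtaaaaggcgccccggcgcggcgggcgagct

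RefSeq windows of 300 bases, 250 before to 50 after the start, were searched on both strands for 7 of the 10 genes. Windows on chromosome 8, where HEY1 lies, were left out, so HEY1 was not searched. None was found for DLL1 or DLL3. HES1 held the longer motif at bases -85 to -79 from its start. The core, which lies within it, was found there and again at -70 to -65. Neither was present in the windows of NRARP, NOTCH1, NOTCH2, NOTCH3, JAG1 or JAG2. Of 35116 windows, 6.25% held the longer motif and 24% the core. The N box bound by HES repressors, searched as CACNAG, had 4 matches in the HES1 window. The other 6 windows had 0 to 2, and 38% of all windows held at least 1. Matches are letters in a window, not measured binding.

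Among the receptors NOTCH1 and NOTCH2 were higher in the olaparib libraries and NOTCH3 was not called. NOTCH1, which is required together with NOTCH2 in intestinal crypt progenitors, lies at chr9:136494433-136545786. It measured 115, 173 and 169 CPM in olaparib replicates 1, 2 and 3, against 49.4, 44.8 and 57.6 CPM in DMSO. All 3 olaparib libraries lay above all 3 DMSO libraries. The mean was 152 ± 32.3 against 50.6 ± 6.48 CPM (SD, n = 3), 3.01-fold higher by edgeR's quasi-likelihood test (log2 1.59 ± 0.16, SE, adjusted p = 1.58e-06). Of all genes tested, 69.1% had a smaller absolute log2 fold change.

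NOTCH2, at chr1:119911553-120069626, measured 303, 434 and 449 CPM in olaparib and 266, 144 and 247 CPM in DMSO. The groups did not overlap, but olaparib replicate 1 and DMSO replicate 1 were close. The difference was 1.80-fold (log2 0.85 ± 0.21, edgeR adjusted p = 0.00328), and 46.3% of genes had a smaller one. The call was lost when genes with as little as 1 count were kept (adjusted p = 0.0535). NOTCH2 shares sequence with the NOTCH2NL genes, whose 4 rows together held 0.542 to 0.768% as many counts as NOTCH2. How reads common to them were assigned is not given in the sources used here.

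NOTCH3, at chr19:15159038-15200981, measured 49.2, 25.3 and 23.4 CPM in olaparib and 35.3, 19.5 and 19.8 CPM in DMSO. The groups overlapped, and replicate 1 was the highest library in each. The log2 fold change was 0.39 ± 0.31 (edgeR adjusted p = 0.277). It was -0.03 without olaparib replicate 1 and 0.72 without DMSO replicate 1.

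The ligands split. JAG2 was higher in olaparib, DLL1 and DLL3 were much lower, and JAG1 was slightly lower. JAG2, a Serrate-type ligand at chr14:105140981-105168824, measured 58.3, 70.4 and 73.5 CPM in olaparib and 47.7, 34.5 and 34.4 CPM in DMSO. All olaparib libraries were above all DMSO libraries, by 1.73-fold (log2 0.79 ± 0.14, edgeR adjusted p = 0.00029). A transcript on the same strand, AL512356.1, covers 7.33% of its merged exons.

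JAG1, at chr20:10637684-10673999, measured 10.2, 8.62 and 8.24 CPM in olaparib against 11.5, 13.5 and 11.4 CPM in DMSO. The groups did not overlap, with a gap of about a single CPM. An antisense transcript, AL050403.2, covers 0.85% of its merged exons, and the strand setting of the counting is not known. It was 1.34-fold lower (log2 -0.42 ± 0.16, edgeR adjusted p = 0.0318). The call was lost without olaparib replicate 2 (adjusted p = 0.105), olaparib replicate 3 (0.143) or DMSO replicate 2 (0.0832).

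DLL1, a Delta-type ligand that activates Notch on neighbouring cells, lies at chr6:170282206-170306565. It measured 1.47, 0.523 and 0.743 CPM in olaparib, from 42, 16 and 21 counts, and 23.2, 17.5 and 16.7 CPM in DMSO. It was 21.1-fold lower, the largest difference of the 10 genes (log2 -4.40 ± 0.30, edgeR adjusted p = 7.52e-08), and 90.6% of all genes differed less. DLL3, an atypical Delta that does not activate Notch on other cells and is a marker of neuroendocrine tumours, lies at chr19:39498895-39508481. It measured 2.23, 1.76 and 1.98 CPM in olaparib and 13.1, 19.8 and 13.7 CPM in DMSO. Its groups were also far apart, 7.77-fold (log2 -2.96 ± 0.22, edgeR adjusted p = 1.47e-07), and 84.2% of genes differed less.

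All 3 targets were lower in the olaparib libraries, HEY1 by far the most. HEY1, a repressor best known from the heart and blood vessels, lies at chr8:79764010-79767863. It measured 7.64, 5.49 and 5.63 CPM in olaparib. In DMSO it measured 88.0, 80.8 and 79.8 CPM. The groups were 13.3-fold apart (log2 -3.73 ± 0.14, edgeR adjusted p = 7.57e-10), with 88.3% of genes differing less.

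HES1, the repressor of secretory fate in the gut, whose promoter is shown above, lies at chr3:194136145-194138732. It measured 16.1, 12.5 and 11.7 CPM in olaparib and 27.3, 42.6 and 37.5 CPM in DMSO. The groups did not overlap and the mean was 2.66-fold lower (log2 -1.41 ± 0.18, edgeR adjusted p = 1.44e-05). NRARP, which binds the Notch intracellular domain and limits its activity, lies at chr9:137300482-137302251. It measured 27.2, 27.9 and 28.7 CPM in olaparib, the tightest of the 10 genes there, and 67.6, 56.0 and 51.7 CPM in DMSO. It was 2.09-fold lower (log2 -1.07 ± 0.12, edgeR adjusted p = 4.82e-06). These sizes were exceeded by many genes: 64.8% of all genes differed less than HES1 and 54.7% less than NRARP.

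**Figure D1:**
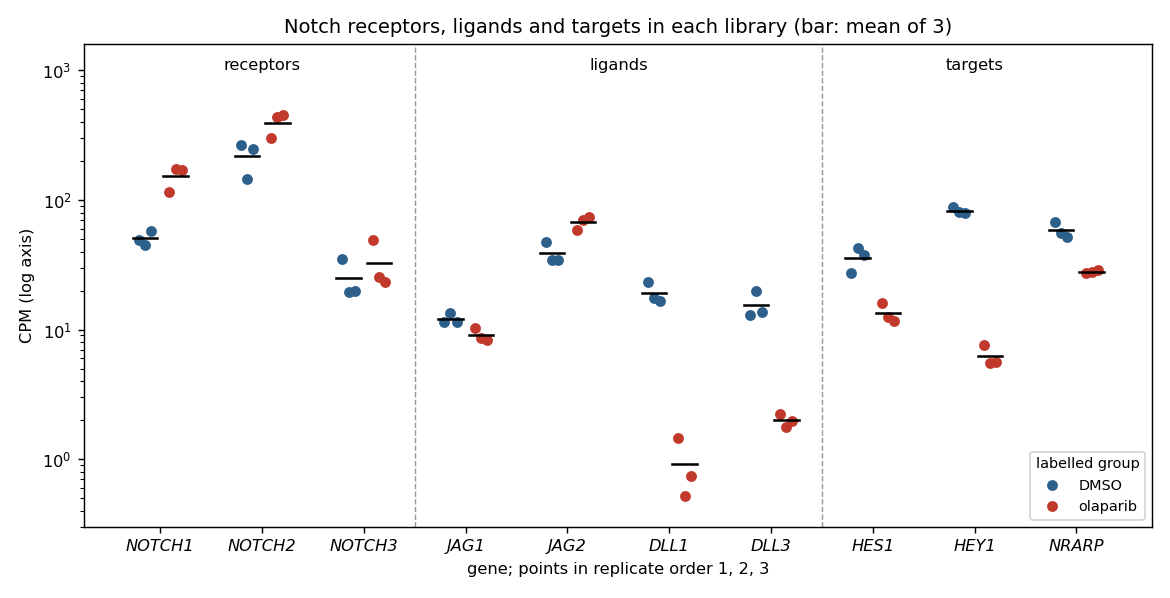
Level of each Notch gene in every library, in CPM on a log axis, with DMSO in blue and olaparib in red and a bar at the mean of 3 libraries. NOTCH1, NOTCH2 and JAG2 are higher in olaparib, NOTCH3 overlaps between groups, and the other 6 genes are lower, DLL1 and HEY1 by the widest gaps.

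Of the 10 genes 3 were called higher, 6 lower and 1 not, so 90.0% were called against 75.7% of all genes, and the groups did not overlap in 9 of 10 against 79.4%. The median log2 fold change was -0.74 over the 10 genes and -0.09 over all genes tested, and the median absolute value was 1.24 against 0.94. The list is short, and its share called is near that of all genes. Replicates within a group also varied more for most of these genes than for the typical gene. The SD of log2 CPM over the olaparib libraries was 0.71 for DLL1, 0.59 for NOTCH3, 0.33 for NOTCH1 and 0.32 for NOTCH2, against a median of 0.11 over genes of at least 1 CPM. In DMSO it was 0.49 for NOTCH3 and 0.48 for NOTCH2, against a median of 0.18. Olaparib replicate 1 was the lowest of its group for NOTCH1, NOTCH2, JAG2 and NRARP and the highest for the other 6 genes. Over all genes it differed from replicates 2 and 3 by a chi-square per degree of freedom of 24.0 and 26.7, whereas those 2 differed by 4.74. Pairs of DMSO libraries differed more, by 68.6, 43.5 and 31.9.

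Levels were compared between genes only after division by merged exon length, on the scale of transcripts (TPM). In olaparib NOTCH2 came first, at 88.9 ± 20.9 TPM, followed by NRARP (59.4 ± 3.83), NOTCH1 (55.5 ± 13.3) and JAG2 (39.7 ± 6.12). NRARP and NOTCH1 overlapped in range. The lowest NOTCH2 library (65.1 TPM) was just above the highest NRARP library (63.1 TPM), and the lowest NOTCH1 library (40.1 TPM) was below the highest JAG2 library (44.8 TPM). The order depends in part on the length used: with coding length NRARP came before NOTCH2 and HEY1 before NOTCH3, and with the longest transcript NOTCH1 came before NRARP. HES1 (24.4 ± 3.32), NOTCH3 (12.9 ± 5.19), HEY1 (7.24 ± 1.14), JAG1 (3.64 ± 0.287), DLL3 (2.86 ± 0.283) and DLL1 (1.05 ± 0.532) followed, with no overlap in range between neighbours in that order at merged exon length.

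In DMSO the targets led. NRARP stood at 124 ± 19.3 TPM, HEY1 at 96.0 ± 7.81, HES1 at 64.7 ± 12.3 and NOTCH2 at 49.3 ± 16.4, and of these HES1 and NOTCH2 overlapped in range. NRARP and HEY1 did not overlap, but with the longest transcript as length HEY1 came first and NRARP after it. JAG2 (22.8 ± 5.0), DLL1 (22.2 ± 4.53), DLL3 (22.0 ± 4.13) and NOTCH1 (18.3 ± 3.10) could not be ordered beyond their spread. NOTCH3 (9.95 ± 3.83) and JAG1 (4.87 ± 0.243) were the lowest. Summed over the 3 receptors the level was 124, 170 and 178 TPM in olaparib and 93.0, 53.0 and 86.5 TPM in DMSO. Summed over the 4 ligands it was 41.6, 48.1 and 52.1 TPM in olaparib and 79.7, 70.3 and 65.9 TPM in DMSO. Summed over the 3 targets it was 92.3, 88.8 and 92.1 TPM in olaparib and 301, 274 and 279 TPM in DMSO. Receptor sums were thus higher, and ligand and target sums lower, in every olaparib library than in any DMSO library.

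The make-up of each set differed as well. JAG2 took 83.8 ± 4.02% of the length-scaled ligand level in olaparib (SD, n = 3) and 31.5 ± 4.27% in DMSO, where DLL1 (30.7 ± 3.54%) and DLL3 (30.9 ± 7.09%) took like shares. In olaparib DLL1 took 2.31 ± 1.43% and DLL3 6.11 ± 1.13%. JAG1 took a small share in both groups, 7.81 ± 1.53% in olaparib and 6.81 ± 0.781% in DMSO. Among receptors NOTCH2 was the largest in every library, with 56.1 ± 3.28% in olaparib and 62.7 ± 4.65% in DMSO. NOTCH1 took 35.0 ± 2.39% in olaparib and 24.4 ± 4.63% in DMSO. Among targets HEY1 took 7.95 ± 1.14% in olaparib and 33.7 ± 1.23% in DMSO, while HES1 took 26.8 ± 3.39% and 22.9 ± 5.33%.

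**Figure D2:**
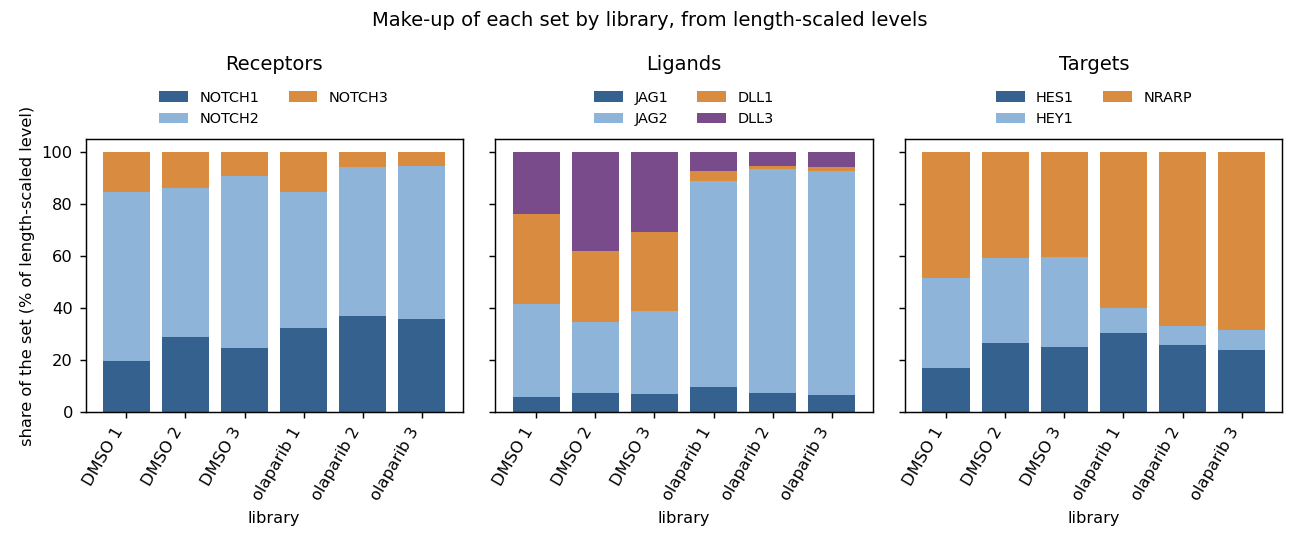
Share of the length-scaled level that each gene takes within the receptors, ligands and targets, in percent, as 1 stacked bar per library. JAG2 fills most of the ligand bar in the olaparib libraries, whereas JAG2, DLL1 and DLL3 share it in DMSO. HEY1 takes a smaller part of the target bar in olaparib than in DMSO.

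The rest of the pathway was described by 7 lists with 75 genes, 68 of which were tested. Of those 68, 25 were higher, 28 lower and 15 not called (77.9% called against 75.7% of all genes), with a median log2 fold change of -0.11. NOTCH4, GXYLT2, DTX1, HELT, HEYL, ATOH1, INSM1 and SPDEF passed the filter on low counts through their higher group alone. This tally and those of the lists that hold them are in part set by that filter. Where no p stands beside a gene of these lists given as higher or lower, edgeR's adjusted p was at most 0.00361, the value of FBXW7. Among the other receptors and ligands DLK2, an atypical ligand, was 5.03-fold lower (2.81 ± 0.369 against 14.1 ± 1.39 CPM). NOTCH4 was near the limit of detection, at 0.262 ± 0.227 against 0.812 ± 0.407 CPM (23 and 88 counts). It was called lower by edgeR (adjusted p = 0.0405), but not without olaparib replicate 2 (0.0901) or 3 (0.137) or without DMSO replicate 2 (0.174) or 3 (0.0636). Its log2 fold change was -1.59, and -2.37 with olaparib replicate 1 left out. DLL4 was not called, at 3.47 ± 1.69 against 3.09 ± 0.294 CPM, and DLK1 held 2 counts in all and was not tested.

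The enzymes that put sugars on Notch repeats divided evenly, 4 higher, 4 lower and 1 not called of 9. That is 88.9% called, against 75.7% of all genes, and GXYLT2 passed the filter on low counts through the DMSO libraries. The Fringe enzymes, which tune the response to Delta and Jagged ligands, went both ways. LFNG was 3.87-fold higher (15.7 ± 1.98 against 4.09 ± 0.946 CPM) and RFNG 2.78-fold lower (18.3 ± 2.70 against 50.9 ± 8.86 CPM). The xylosyltransferases GXYLT2 and XXYLT1 were 213-fold and 2.59-fold lower. GXYLT2 measured 25.2 ± 4.35 CPM in DMSO and held 10 counts over the olaparib libraries. Its log2 fold change was -7.74, or -8.46 without olaparib replicate 1.

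Of 9 proteases and their subunits 3 were higher, 3 lower and 3 not called (66.7% called against 75.7% of all genes). ADAM10, which makes the ligand-dependent cut, was 2.61-fold higher (142 ± 4.0 against 54.4 ± 5.50 CPM), and FURIN, which cuts the receptor during its maturation, 3.02-fold (340 ± 1.71 against 113 ± 4.56 CPM). Among subunits of gamma-secretase, which frees the intracellular part, APH1A was 2.05-fold lower and PSENEN 3.62-fold lower. NCSTN, another subunit, named after its value was seen, was 1.55-fold higher.

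In the nuclear complex and its co-repressors 5 of 18 genes were higher, 4 lower and 9 not called. The 50% called, against 75.7% of all genes, was the lowest share of the 7 lists. Without DMSO replicate 2, 7 of the 18 were called lower. RBPJ stood at 78.9 ± 3.51 CPM in olaparib and 67.3 ± 9.59 in DMSO, with a log2 fold change of 0.23 ± 0.12 (edgeR adjusted p = 0.0893), and was called without DMSO replicate 3 (adjusted p = 0.0332). The coactivator MAML1 stood at 117 ± 5.57 and 126 ± 16.6 CPM and was not called, whereas MAML2 was 3.88-fold higher (14.4 ± 1.37 against 3.70 ± 1.04 CPM). The Groucho co-repressors TLE2 and TLE4, which HES proteins recruit, were 4.84-fold and 3.03-fold lower.

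Genes of ligand and receptor endocytosis and turnover numbered 14, of which 9 were higher, 4 lower and 1 not called, against 35.4% higher and 40.3% lower over all genes. DTX3L, a ubiquitin ligase that pairs with PARP9 and is also interferon-inducible, was 6.82-fold higher (87.0 ± 3.62 against 12.7 ± 2.26 CPM). Ligases that act on Delta and Jagged ligands were higher too: NEURL1 by 3.62-fold, NEURL1B by 3.19-fold and MIB2 by 1.94-fold. MIB1 was called 1.25-fold higher with overlapping groups (edgeR adjusted p = 0.039). That call was lost without olaparib replicate 2 (0.116) or 3 (0.0953), without DMSO replicate 1 (0.0645) or 2 (0.129), and with library size as the only scaling (0.115). FBXW7, which marks the intracellular part for degradation, was 1.42-fold lower, and NUMB, an inhibitor, stood at 52.8 ± 5.88 and 57.2 ± 2.53 CPM and was not called. DTX1, a known Notch target in lymphocytes, had no count in olaparib and 64 in DMSO, at least 16.1-fold lower against a floor of 3 counts over the olaparib group.

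All 10 tested genes of the wider HES and HEY family were called, 7 lower and 3 higher, against 75.7% of all genes called and 40.3% lower. Their median log2 fold change was -1.80, against -0.09 over all genes, and HES3 was not tested. Without DMSO replicate 1, 4 were called lower. HELT (no count in olaparib, 50 in DMSO) and HEYL passed the filter on low counts through the DMSO libraries. The tally of calls and the median are thus in part set by that filter. The other HEY genes were lower together with HEY1. HEY2 measured 2.44, 1.76 and 1.56 CPM in olaparib against 13.4, 18.1 and 15.1 CPM in DMSO, 8.09-fold lower, and HEYL 0.488, 0.392 and 0.283 against 14.2, 11.5 and 12.6 CPM, 32.6-fold lower. HES6, which opposes HES1 and favours neuronal differentiation, was 11.1-fold lower (3.88 ± 0.904 against 43.1 ± 5.36 CPM). HES5 was 2.59-fold higher, at 2.75 ± 0.655 against 1.06 ± 0.102 CPM, and BHLHE40, a related repressor that is not a classical Notch target, 2.20-fold higher.

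HES4 measured 111, 40.1 and 43.8 CPM in olaparib and 114, 242 and 187 CPM in DMSO, so that the replicates numbered 1 were almost equal. It was called lower (log2 -1.48 ± 0.44, edgeR adjusted p = 0.0174). Without DMSO replicate 1 or 2 it was not (adjusted p = 0.0503 and 0.119), and without olaparib replicate 1 its log2 fold change was -2.11.

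**Figure D3:**
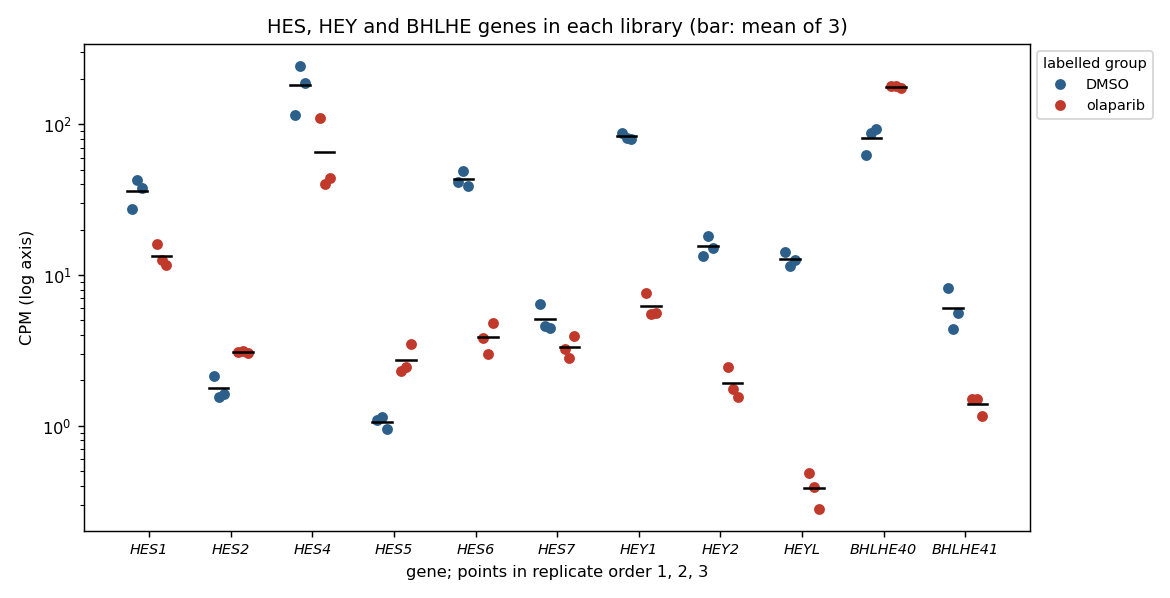
Level of HES, HEY and BHLHE genes with counts in both groups, in CPM on a log axis, with DMSO in blue, olaparib in red and a bar at the mean of 3 libraries. HEY1, HEY2, HEYL and HES6 are well below DMSO in all olaparib libraries, HES4 nearly meets between the groups, and HES5 and BHLHE40 are higher.

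Most transcription factors of proneural and secretory fate, which HES proteins repress, were scarce, with GFI1 in DMSO the clearest exception. Of 10 genes, 5 were too low to test, and of the other 5, 4 were lower and 1 higher, where 75.7% of all genes were called and 40.3% were lower. ATOH1, the master factor of secretory cells, had no count in olaparib and from 0.407 to 0.617 CPM in the DMSO libraries. That is at least 14.6-fold lower against the same floor. GFI1 was 21.8-fold lower (1.12 ± 0.184 against 24.5 ± 2.78 CPM) and INSM1 53.8-fold lower, with 4 counts in olaparib. SPDEF, a factor of goblet cells, was 21.9-fold higher (3.50 ± 0.620 against 0.157 ± 0.0397 CPM). The median log2 fold change of the 5 was -4.45 as fitted and -3.87 with ATOH1 at its bound. ATOH1, INSM1 and SPDEF passed the filter on low counts through 1 group alone. The share called and this median are therefore no result about the list.

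**Figure D4:**
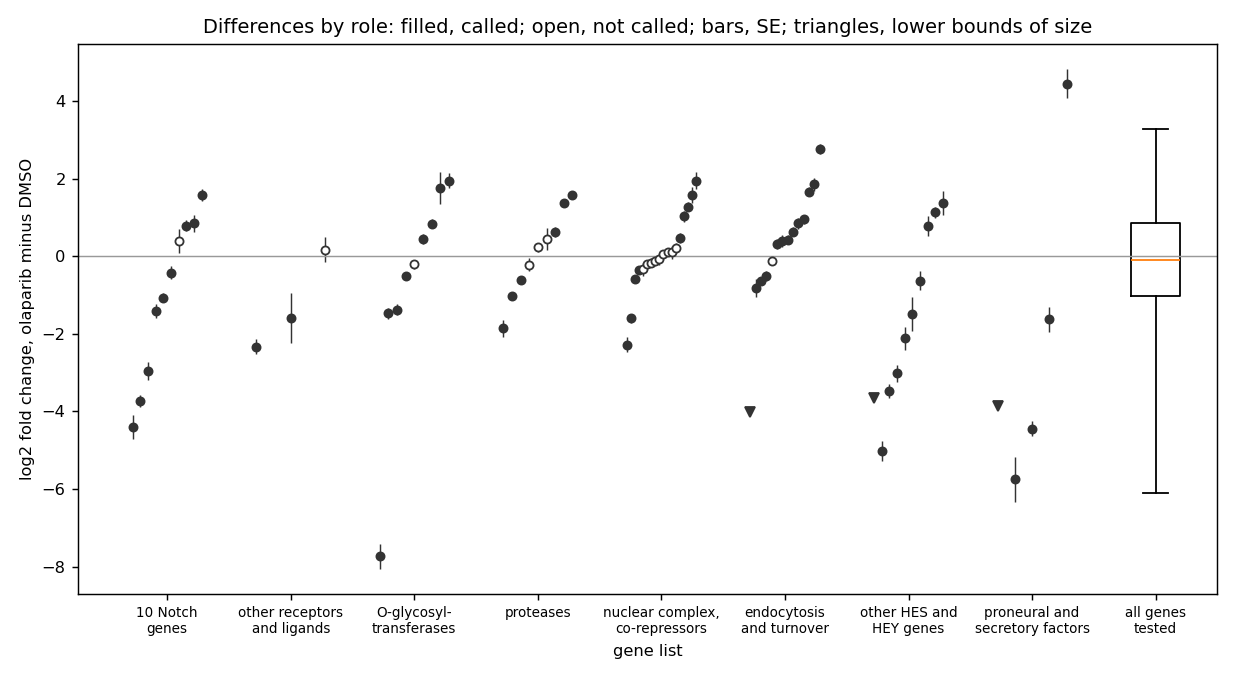
Log2 fold change, olaparib minus DMSO, of each tested gene by role, with SE bars, filled points for called genes and triangles for genes without a count in olaparib, drawn at their bound. The box gives the middle 50% of all genes tested and its whiskers the 5th and 95th percentiles. The lists spread to both sides of 0, except that HES, HEY and proneural genes lie mostly below it.

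Position on the chromosome was not used to choose the genes. NOTCH1 and NRARP start 0.756 Mb apart on chromosome 9, and NOTCH1 was higher and NRARP lower. The protein-coding genes tested within 5 Mb had a median log2 fold change of 0.39 around NOTCH1 (104 genes) and 0.41 around NRARP (101 genes). Of the former, 24 were as high as NOTCH1 (23.1%), and of the latter, 7 were as low as NRARP (6.93%). The windows of NOTCH1 and NRARP hold nearly the same genes, so their medians are not independent. Around DLL1 the median of 18 neighbours was -1.16, and 3 were as low as DLL1. Around JAG1 the median of 21 neighbours was -1.25, and 16 were as low as JAG1. The median was -0.68 for the 19 neighbours of HEY1, 4 of which were as low as HEY1, and 0.03 for the 40 neighbours of HES1, 5 of which were as low. Around DLL3 it was -0.49 over 201 genes, 14 as low, and around JAG2 -0.53 over 52 genes, 12 as high as JAG2. It was 0.11 for the 25 neighbours of NOTCH2, 6 of which were as high as NOTCH2, and -0.26 for the 214 of NOTCH3, 53 of which were as high as NOTCH3. JAG2, NRARP, HES1 and NOTCH3 thus stood on the other side of 0 from the median of their neighbours. Of these, NOTCH3 was not called, and the median around HES1 was close to 0. No test of a gene against its neighbours was made.

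**Figure D5:**
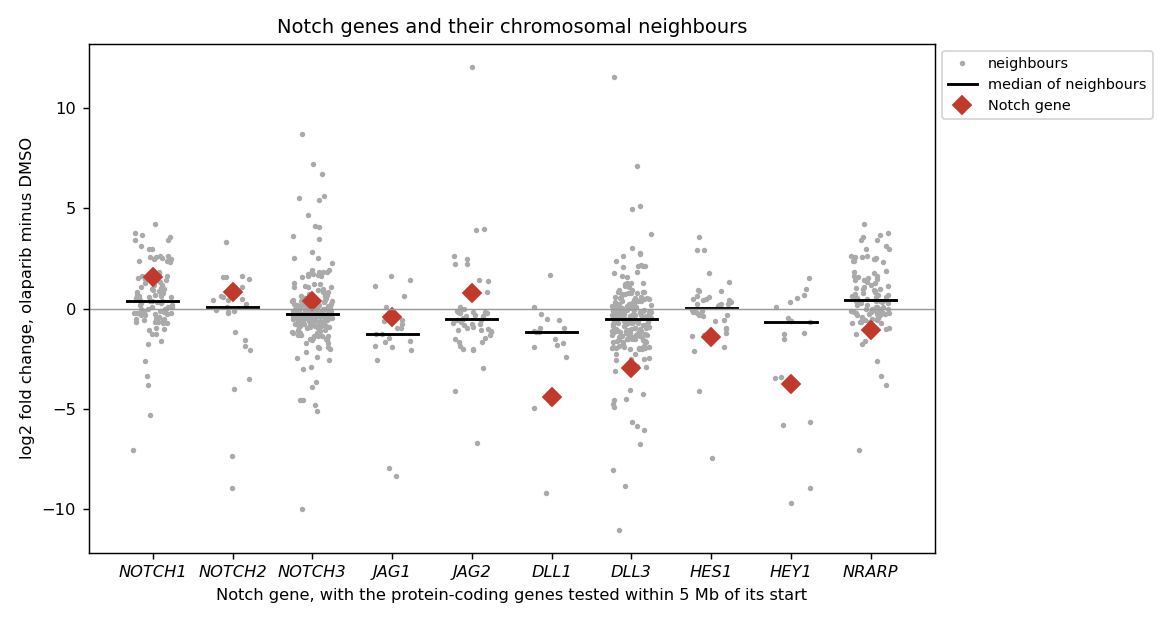
Log2 fold change, olaparib minus DMSO, of each Notch gene (red diamond) and of the protein-coding genes tested within 5 Mb of its start (grey), with their median as a bar. NRARP lies below and NOTCH1 above the median of its neighbours, and DLL1 lies below a median that is itself under 0, with 3 of 18 neighbours as low.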

How the data were processed

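Raw read counts, 1 column per library, were deposited by the authors. They used fastp and STAR on hg38, per the submitters' processing notes. The sources used here do not give the counter, strand setting or annotation. Genes with 2 counts outnumbered genes with 1 in each column, as if both mates of a fragment had been counted. Floors of 3 counts may then be too small and cover counting error only. Groups came from the titles. Nothing says that replicates were separate cultures, so p-values measure the spread between libraries, which may be technical.

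The test was edgeR 4.0.16 under R 4.3.3 (default filter, TMM, robust quasi-likelihood, group as the only term), adjusted by Benjamini-Hochberg over 17078 genes and called at 0.05. The script was tested on simulated data. CPM used TMM-scaled library sizes, and TPM used merged exon lengths of GENCODE 29 (GRCh38), which also gave the coordinates. Values are mean ± SD over 3 libraries, and log2 fold changes carry SE. Alternatives were DESeq2 1.42.0, limma-voom (limma 3.58.1), other scalings and filters, counts divided by 2, a replicate block and leaving out each library. The genes named were the 10 Notch genes, up to 4 called genes per pathway list with the smallest adjusted p, and 17 chosen by name; some of these are not reported here. DLK1, HELT, HES3, MFNG and NCSTN were added after their values were seen. The 10 genes and all lists were chosen with earlier results of these data known.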

Additional observations from a re-analysis of the deposited data

How the results depend on the processing

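Over 14 alternatives 7 of the 10 Notch genes kept their direction and call. So did 31 of the 36 pathway genes tested and named, over the alternatives that gave them a value (11 for DTX1 and 12 for ATOH1), and no gene called in both fits changed sign. HELT, MFNG and NCSTN were not among those 36. The exceptions were NOTCH2, NOTCH3, JAG1, NOTCH4, DLL4, RBPJ, MIB1 and HES4, and the cause was not tested. With each library left out in turn, the log2 fold change ranged from -0.034 to 0.72 for NOTCH3 and from -0.30 to 0.41 for DLL4, turning negative without olaparib replicate 1 in both. NOTCH4 missed the threshold with DESeq2 (adjusted p = 0.051) and HES4 without a filter on low counts (0.091). In the list of other receptors and ligands, the number lower was 1 with DESeq2 and 1 to 2 with a library left out. It was also 1 with the stricter filter and with counts divided by 2, where NOTCH4 was not tested. Lower counts with a library left out were 4 to 7 for the nuclear complex (7 without DMSO replicate 2) and 4 to 7 for other HES and HEY genes (4 without DMSO replicate 1). By level, 6 of 10 Notch genes kept their rank in olaparib with coding length and 6 of 10 in DMSO with the longest transcript. Same-numbered libraries did not deviate together (correlations -0.153, -0.111 and -0.0016), so the numbers were not read as pairs. With a replicate block 12426 genes were called, against 12927 without. NOTCH3 was then called (log2 0.37, adjusted p = 0.0232), and JAG1 (-0.43, 0.056) and HES4 (-1.60, 0.103) were not. Depth limits the folds of genes with few counts in a group, such as INSM1 (4 in olaparib), GXYLT2 (10 in olaparib), SPDEF (18 in DMSO) and NOTCH4 (23 in olaparib).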
